A study of Sus scrofa with 8 samples.

Results

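Solute carriers are membrane proteins that move nutrients, ions, metals and metabolites across the cell surface and the membranes of organelles. The genes described here are all those whose symbol in the platform annotation starts with SLC and a family number, except SLC1A5 and SLC3A2, which gave 105 of the 4560 genes with a symbol. Each gene was represented by the brightest of its probes in the deposited log2 table, and 52 of the 105 had 1 probe. They belong to 32 SLC families, placed here in 11 classes by the main substrate of the family, so a member that carries something else, such as the iodide carrier SLC5A5 among the sugar families, counts with its family. SLC9A3R1 and SLC9A3R2 entered by their symbols although they encode scaffold proteins that bind transporters and do not carry a solute themselves.

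The T cells were taken from blood and from colostrum (the first milk) of 2 Large White x Landrace sows. CD3-positive mononuclear cells were sorted into CD8-positive cells without CD4 (CD8 single positive) and cells with both CD4 and CD8 (double positive), a mature population that is common in pigs. The 4 groups are thus colostrum and blood CD8 single positive cells and colostrum and blood double positive cells, each with 1 sample of each sow, and the study set out to compare colostrum with blood within each population. The sows had no treatment in the labels, and 10 ng of total RNA per sample was amplified before labelling. Colostrum cDNA always carried Alexa Fluor 3 and blood cDNA Alexa Fluor 5, so an effect of the dye and one of the source cannot be told apart. With sorted cells, fewer transcripts per cell and fewer cells that carry them cannot be told apart either.

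A resting T cell lives mainly on glucose and fatty acid oxidation and takes up little. On activation it imports more glucose through SLC2 family carriers, exports lactate through SLC16 carriers, brings in amino acids through SLC1, SLC7 and SLC38 carriers, and takes up iron and zinc. Inside the cell, SLC25 carriers feed the mitochondria and SLC35 carriers bring nucleotide sugars and sulfate donors into the Golgi apparatus for building glycans. The roles given below are known chiefly from human and mouse work.

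Before normalization channels of colostrum had median intensities of 118 to 133 units and channels of blood 27 to 34, with negative-control medians of 68 to 81 and 1 to 8. All levels below are quantile-normalized log2 intensities with a floor of 5.34, and a probe counted as above background where it exceeded the 95th percentile of the negative-control spots of its channel, at 6.78 to 7.05. The 6 T cell genes checked were above background on both arrays of every group. CD4 lay at 6.90 to 8.77 in the double positive and 5.34 to 6.29 in the CD8 single positive samples. For the 3 sort genes CD4, CD8A and CD8B the median double minus CD8 single positive difference was -1.01 in colostrum and -1.66 in blood. CD8A and CD8B thus had lower values in double positive cells of both sources. On both arrays of colostrum double positive cells 1 of the 3 was above background, against 2 in each other group. Markers of other cells were present unevenly. The milk casein CSN1S1 was at 7.36 and 11.38 in colostrum CD8 single positive cells and at 8.60 in those of the blood of sow 2, while KRT18 was above background in 0 of 8 samples. The neutrophil gene S100A12 was at 9.05 and 9.81 in the blood samples of sow 2. The 1 red cell and platelet gene measured was at 7.87 to 7.98 in colostrum and 9.09 to 9.10 in blood CD8 single positive cells. In double positive cells it was at 7.69 to 8.5 against 9.35 to 9.55. The 1 B cell gene measured was above background on both arrays of both CD8 single positive groups only. It differed by -2.32 between double and CD8 single positive cells of blood, and limma called neither gene. The part of such cells in the values below was not tested. In each pair of values below, sow 1 precedes sow 2. Orders of colostrum against blood hold for quantile-normalized values, and another scaling turned many of them, as given with the comparisons.

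Of the 105 solute carriers, 41 (39%) were above background on both arrays of at least 1 group, against 46.1% of all genes with a symbol. On all 8 samples 21 (20%) were above background, against 23.6% of all genes. A further 45 reached the threshold in scattered samples only, and 19 (18.1%) in 0 of 8 samples, against 18.7% of all genes. The solute carriers were thus detected about as often as other genes on the array, which is a description of shares and was not tested. Blood double positive cells had 34 of them on both arrays, colostrum and blood CD8 single positive cells had 30 each, and colostrum double positive cells had 23. Of all genes with a symbol, the shares above background on both arrays were 36% in blood double positive cells, 34.9% in blood and 33.5% in colostrum CD8 single positive cells and 30.9% in colostrum double positive cells, so the same groups had the highest and the lowest share.

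The classes differed in how many members were seen. Of the 15 metal carriers, 12 were above background in a group and 8 of these in all samples. All 7 carriers of nucleosides and nucleotide sugars were seen in a group, and 2 of them in all samples. Of the 15 members of the sugar families 6 were seen and 4 of them in all samples, whereas of the 20 carriers of inorganic ions only 2 and of the 18 carriers of amino acids and peptides only 4 were. Among vitamin and organic ion carriers 2 of 11 were seen, among mitochondrial carriers 3 of 7, among monocarboxylate carriers 2 of 5, among fatty acid carriers 2 of 3, among scaffold proteins 1 of 2 and among vesicular carriers 0 of 2.

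**Figure D1:**
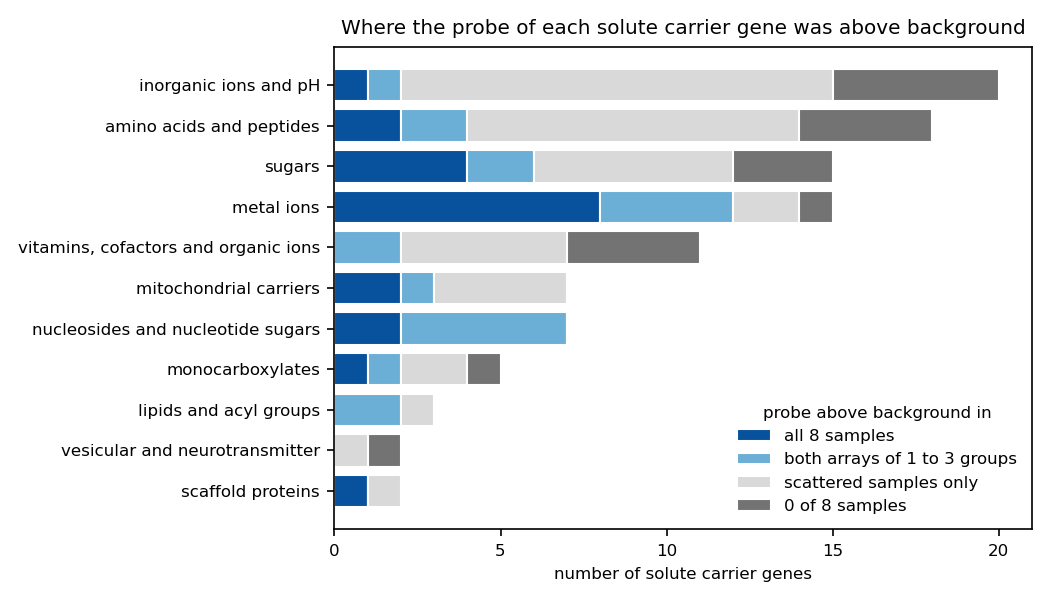
Number of solute carrier genes in each of 11 substrate classes, coloured by where the gene's probe was above background: all 8 samples, both arrays of 1 to 3 groups, scattered samples only, or 0 of 8 samples. The metal bar has the longest dark blue stretch, with 8 of 15 genes, and the nucleoside bar has no grey.

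Genes above background in 0 of 8 samples included several with a known home in another organ. They were SLC2A2, the glucose carrier of liver and pancreatic islets, SLC30A8, the zinc carrier of insulin granules, SLC34A1, the phosphate carrier of the kidney, SLC12A1, the salt carrier of the kidney, and SLC26A3, the chloride exchanger of the gut. SLC19A1, the reduced folate carrier, and SLC38A7, a glutamine carrier of the lysosome, were also below background throughout. At the filter on dim genes, 84 of the 105 (80%) passed and were tested, and the 21 that did not pass were above background on both arrays of no group. The filter stood at a mean of 5.89, with SLC18A1 at 5.91 just inside and SLC7A10 at 5.89 just outside.

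Zinc carriers made up most of the detected metal class. SLC39A7, which releases zinc from the endoplasmic reticulum into the cytosol, was at 11.06 and 12.07 in colostrum CD8 single positive cells, 11.07 and 11.94 in colostrum double positive cells, 9.82 and 10.15 in the CD8 single positive cells of blood and 10.01 and 10.40 in blood double positive cells. All 4 colostrum values lay above all 4 blood values. SLC39A14, an importer of zinc, iron and manganese, was at 12.69 to 13.05 in the 8 samples, the narrowest range among the metal carriers above background in all samples. SLC39A1, an importer of the cell surface, was above background in 3 samples and SLC39A5, an importer known from gut and pancreas, in 3.

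The SLC30 exporters move zinc out of the cytosol. SLC30A1, the exporter of the cell surface, was at 8.54 to 9.32 in the 8 samples with overlapping groups. SLC30A7, which loads the Golgi with zinc, was at 8.05 and 8.44 in colostrum and 9.23 and 9.31 in blood for CD8 single positive cells, and at 9.05 and 8.23 against 8.25 and 9.38 in double positive cells. The groups did not overlap in the first population and overlapped in the second. SLC30A5, which acts in the early secretory pathway, was at 7.45 and 7.31 against 8.19 and 7.58 in CD8 single positive cells. In double positive cells it was at 8.34 and 8.15 against 7.71 and 7.98, so by this probe the order was opposite in the 2 populations. A second probe, above background in 5 samples, had lower means in colostrum in both, by -0.27 and -0.45. SLC30A9, described as a mitochondrial zinc exporter, had its highest value, 8.33, in colostrum double positive cells of sow 1, and SLC30A3, known from synaptic vesicles, ranged from 6.97 to 7.84. SLC30A2 and SLC30A4, which carry zinc into milk in the mammary gland, were no brighter in colostrum than in blood CD8 single positive cells. SLC30A2 was at 7.55 and 7.51 in colostrum and 7.89 and 7.83 in blood, and SLC30A4 at 6.91 and 6.04 against 8.41 and 6.69. In double positive cells both overlapped, with colostrum at 5.34 and 7.19 for SLC30A2 and at 8.24 and 6.26 for SLC30A4, on either side of both blood samples.

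The iron carriers of the SLC11 family were both detected. SLC11A2, the importer of ferrous iron, was at 11.25 and 10.00 in colostrum and 10.76 and 10.08 in blood for CD8 single positive cells, and at 11.20 and 10.07 against 10.21 and 10.14 in double positive cells. In each group the sow 1 sample was the higher one, and colostrum and blood overlapped in both populations. SLC11A1, a metal carrier of phagosomes in macrophages, was at 6.64 to 7.92 in colostrum and 7.98 to 8.25 in blood samples, with no overlap. The summed level of the 3 monocyte genes measured, CD14, CD163 and LYZ, is given on the same scale. In CD8 single positive cells it was 8.16 to 8.19 in colostrum and 8.71 to 8.81 in blood, without overlap. In double positive cells it was 7.86 to 9.09 in colostrum and 7.93 to 8.29 in blood. The part of monocytes in the SLC11A1 values was not tested.

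Among sugar carriers, SLC2A11, a carrier of glucose and fructose, ranged from 13.93 to 14.63, and SLC37A4, the glucose 6-phosphate carrier of the endoplasmic reticulum, from 13.05 to 13.89. SLC2A3, the high-affinity glucose carrier of lymphocytes and neurons, was at 9.26 and 9.83 in colostrum and 9.65 and 8.94 in blood for CD8 single positive cells, and at 9.89 and 9.93 against 10.02 and 9.13 in double positive cells. SLC2A1, the glucose carrier induced on T cell activation, was at 8.53 and 7.84 against 7.69 and 8.05, and at 7.44 and 7.90 against 7.64 and 8.70. For both glucose carriers colostrum and blood overlapped in both populations. SLC2A4, the insulin-regulated carrier, was above background in 7 of 8 samples, at 6.74 to 7.84. SLC5A9, a sodium-driven mannose carrier, was at 5.34 and 5.79 in colostrum CD8 single positive cells, 6.67 and 7.06 in colostrum double positive cells, 6.92 and 6.29 in the CD8 single positive cells of blood and 7.11 and 7.08 in blood double positive cells, close to the background throughout.

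Carriers of nucleosides and nucleotide sugars were seen in every case. SLC29A1, the main equilibrative nucleoside carrier, was at 10.85 to 11.78, and colostrum and blood overlapped in both populations. SLC35B2, which brings the sulfate donor PAPS into the Golgi, was at 8.16 and 7.36 in colostrum and 8.42 and 7.63 in blood for CD8 single positive cells, and at 6.06 and 6.56 in colostrum against 8.53 and 8.16 in blood double positive cells. By this probe colostrum double positive cells were the group below background. Its relative SLC35B3, also a PAPS carrier, was at 7.33 and 5.34 in colostrum and 7.58 and 7.19 in blood double positive cells. SLC35C2, linked to fucose transport into the Golgi, was above background in all samples, at 7.41 to 8.81. SLC35D1, which takes UDP-sugars into the endoplasmic reticulum, SLC35A3, the Golgi carrier of UDP-N-acetylglucosamine, and SLC35F3 each had samples below background.

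Amino acid carriers were mostly dim. SLC7A1, a carrier of arginine and lysine, was at 10.36 and 10.57 in colostrum and 10.36 and 10.47 in blood for CD8 single positive cells, and at 10.75 and 11.23 against 11.08 and 10.52 in double positive cells. SLC7A3, a second cationic amino acid carrier, was at 7.86 and 7.07 against 10.17 and 8.72, and at 9.39 and 6.97 against 8.99 and 8.79. Its 2 colostrum double positive samples thus lay on either side of both blood samples of that population. SLC7A11, the cystine importer, was above background in 1 sample, and SLC7A7, a partner of SLC3A2, in 4. By their chosen probes SLC3A1 and SLC6A19, genes of amino acid transport in kidney and gut, each passed the background on both arrays of 1 blood group only. For SLC3A1 this was blood CD8 single positive cells, while another of its probes passed on both arrays of blood double positive cells. The excluded SLC1A5, a glutamine carrier, and SLC3A2, the heavy chain that the SLC7 light chains pair with, had colostrum values of 9.23 to 10.97 and 8.66 to 9.86, above blood values of at most 8.40 and 7.84.

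Mitochondrial carriers were represented by SLC25A6 and SLC25A3 in all samples. SLC25A6, an exchanger of ADP for ATP, was at 12.85 and 13.14 in colostrum and 13.42 and 13.46 in blood for CD8 single positive cells, and at 12.43 and 12.76 against 13.76 and 13.87 in double positive cells. The blood values were higher in both populations without overlap. SLC25A3, the phosphate carrier, was at 12.72 and 12.58 against 12.06 and 12.17, and at 12.23 and 12.50 against 12.71 and 12.56. By this probe the order was reversed between the populations. Differences by its other probes ranged from -0.05 to 0.62 in CD8 single positive and from -0.30 to 0.36 in double positive cells. Other ADP/ATP exchangers are close in sequence to SLC25A6 and may share its signal.

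Among lactate carriers, SLC16A1 was at 9.45 and 9.32 in colostrum and 8.43 and 9.28 in blood for CD8 single positive cells, and at 10.00 and 9.70 against 9.54 and 8.55 in double positive cells. SLC16A3, the lactate exporter of glycolytic cells, was dimmer, at 5.64 to 6.98 in colostrum and 6.90 to 7.51 in blood. Of the fatty acid carriers, SLC27A1 was above background on both arrays of colostrum CD8 single positive cells only, at 7.41 and 7.03, and SLC27A3 on both arrays of blood CD8 single positive cells only, at 6.98 and 7.41. These values lie close to the threshold.

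Ion carriers above background were SLC4A2 and SLC4A11, both of the SLC4 family. SLC4A2, an exchanger of chloride for bicarbonate, was at 7.95 and 8.26 against 7.75 and 7.80, and at 8.21 and 8.29 against 7.34 and 7.79. SLC4A11, a carrier known from the cornea, was at 8.81 and 8.79 in colostrum CD8 single positive cells, 7.41 and 7.47 in those of blood, 6.96 and 7.50 in colostrum double positive cells and 6.78 and 6.54 in blood double positive cells. It was highest in colostrum CD8 single positive cells, where the sows were nearly the same. SLC4A1, the anion exchanger of red cells, was above background in 1 sample, at 7.28 in blood double positive cells of sow 1. SLC9A3R1, a scaffold that ties membrane proteins to the actin linker ezrin, was at 12.81 and 12.62 against 11.58 and 11.96, and at 12.33 and 12.96 against 11.70 and 11.85, so that all colostrum values lay above all blood values.

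**Figure D2:**
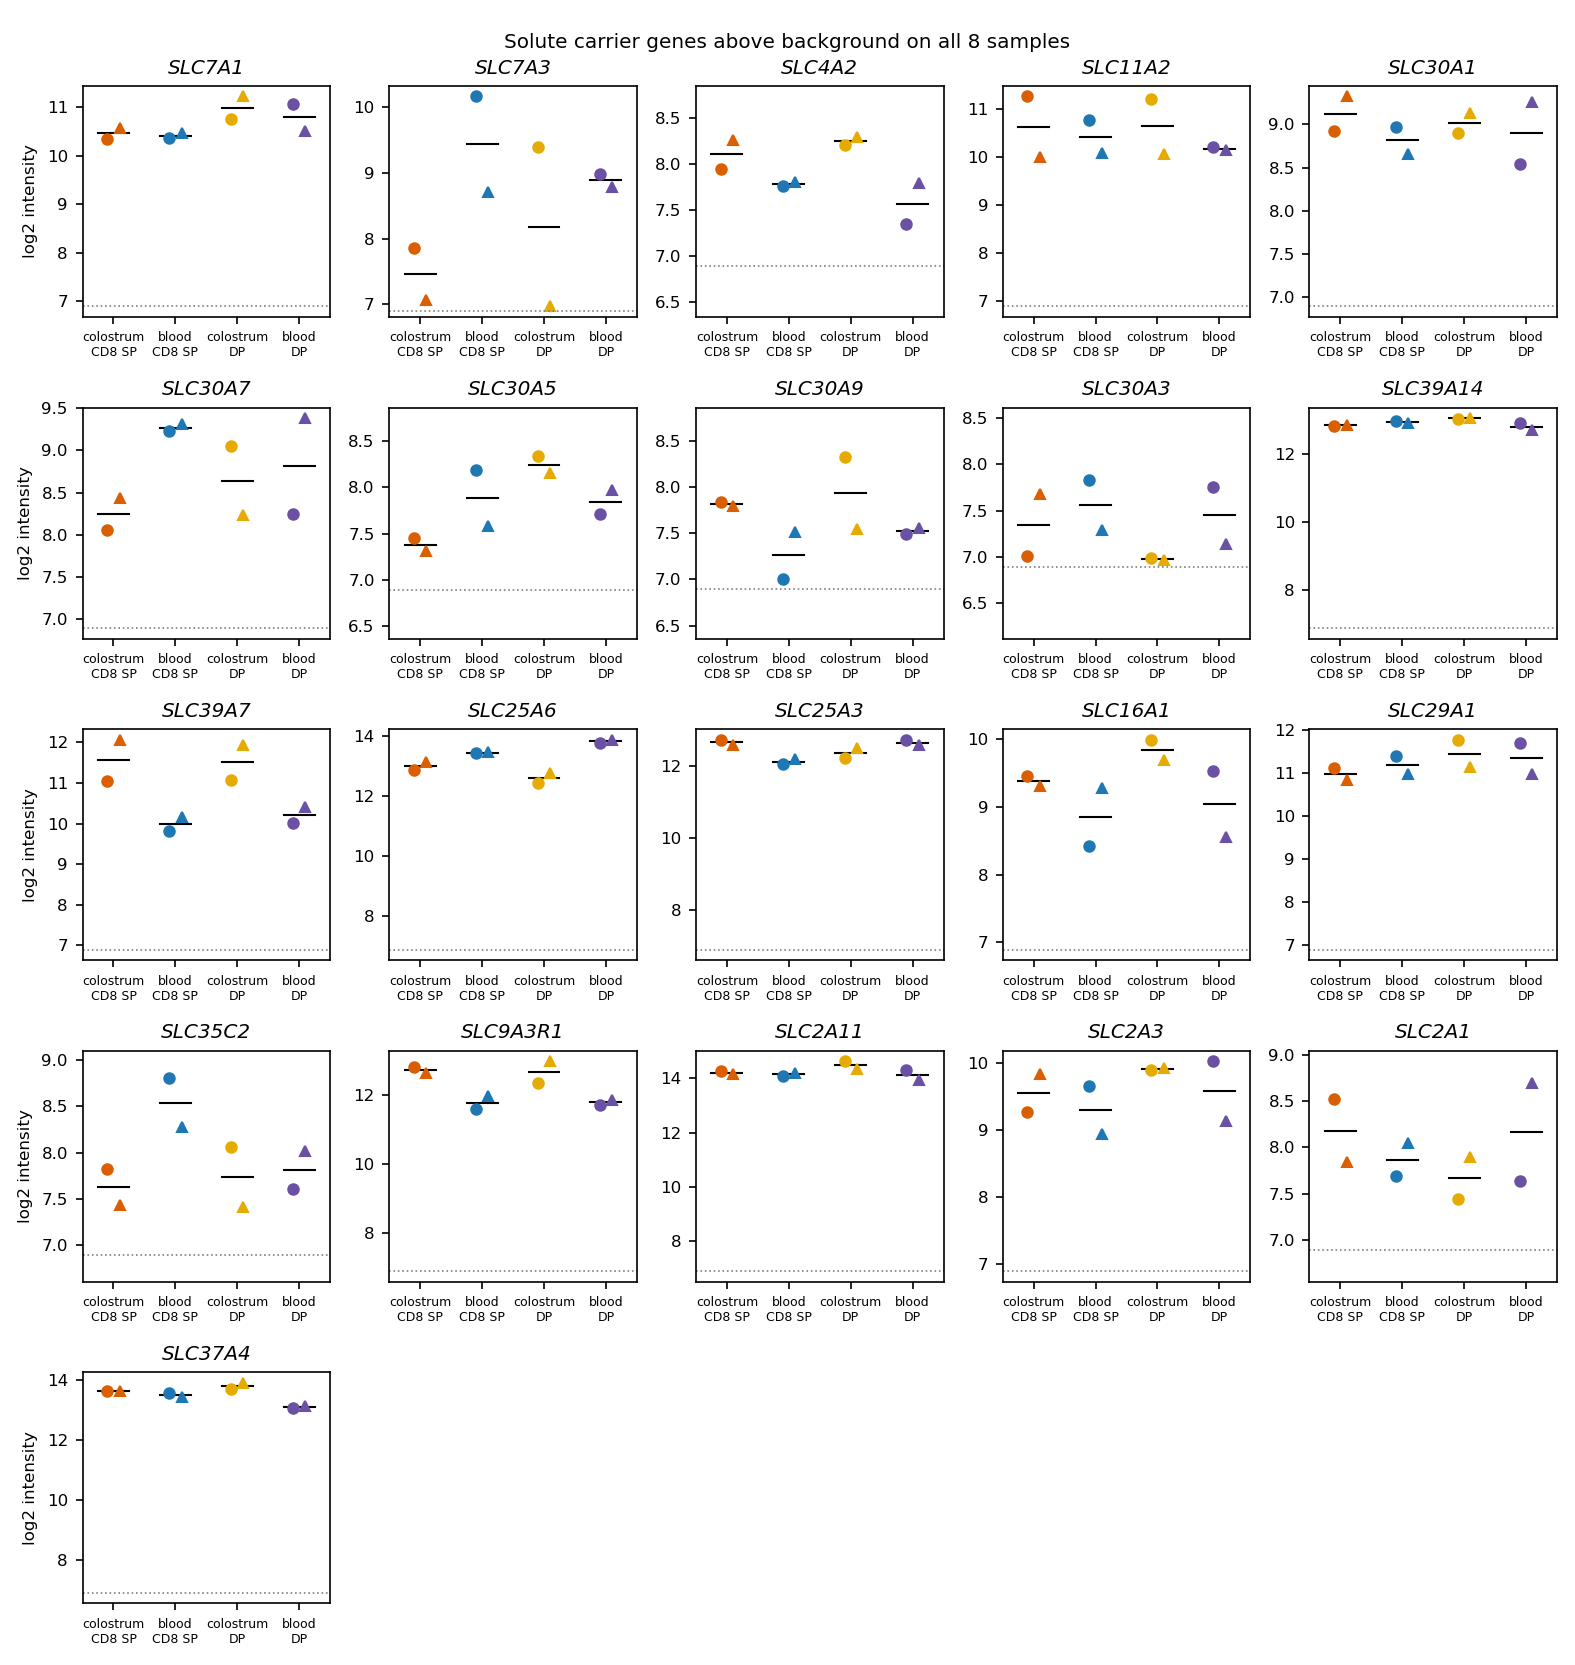
Normalized log2 intensity of the 21 solute carriers above background on all 8 samples, 1 panel a gene, with a circle for sow 1, a triangle for sow 2, a black bar for the mean of the 2 and a dotted line at the mean detection threshold of the 8 channels. Vertical scales differ between panels. SLC37A4, SLC39A7, SLC4A2 and SLC9A3R1 have all 4 colostrum values above all 4 blood values and SLC25A6 has the reverse, while colostrum and blood overlap in both populations for SLC11A2, SLC29A1, SLC2A1, SLC2A3, SLC30A1 and SLC7A1. The share of all genes separated in this way was not counted, so the separation is not shown to be particular to solute carriers.

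Colostrum was first compared with blood in CD8 single positive cells. At an adjusted p under 0.05, 0 of the 84 tested solute carriers were called by limma, against 0% of the 3706 genes tested in either direction, and the smallest adjusted p of a solute carrier was 0.532. At an unadjusted p under 0.05, 4 solute carriers (4.76%) stood out, against 7.85% of all genes, so the share was no higher than the background. They were SLC39A7, SLC4A11 and SLC39A5 with higher and SLC7A3 with lower values in colostrum. The median difference over the 84 was 0.05 on the log2 scale, against -0.07 over all genes, with 44 higher and 40 lower. The groups did not overlap for 16 with higher values (19%, background 16.1%) and for 17 with lower values in colostrum (20.2%, background 21.7%).

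For SLC39A7 the difference in CD8 single positive cells was 1.57 (SE 0.55, 1.24 and 1.91 in the 2 sows, limma adjusted p = 0.566). A second probe of the gene above background in all samples gave 0.80. SLC4A11 differed by 1.37 (SE 0.46, 1.41 and 1.32 in the sows, limma adjusted p = 0.532), and its other probe, above background in 4 samples, gave 0.29. SLC7A3 differed by -1.98 (SE 0.81, -2.31 and -1.65 in the sows, limma adjusted p = 0.598), against -0.31 by a dim probe. The difference of SLC39A5, 1.17, was taken between values of which 1 in the 4 samples exceeded the background. SLC27A1 was at least 1.22-fold higher in colostrum, a bound because both blood values were below background. However, the sows gave 1.95 and 0.11, and leaving out 1 sample moved the difference of 1.03 to between 0.30 and 1.76. Its other probes, above background in 0 of 8 samples, gave -0.40 and 0.11. With the sow as a block SLC39A5 no longer had an unadjusted p under 0.05, which left 3 solute carriers. Without either blood double positive sample, which changes only the shared spread, 2 solute carriers had an unadjusted p under 0.05.

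In double positive cells, 0 of 84 solute carriers were called by limma in the same comparison, against 0% of all genes, with 0.368 as the smallest adjusted p. At an unadjusted p under 0.05 there were 4 (4.76%), against 8.58% of all genes. SLC39A7 and SLC9A2, a sodium-proton exchanger of epithelia, had higher values and SLC25A6 and SLC35B2 lower values in colostrum. The median difference was -0.07, against -0.09 over all genes, with 39 higher and 45 lower. The groups did not overlap for 15 with higher values (17.9%, background 14.5%) and 19 with lower values (22.6%, background 23.3%).

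SLC35B2 had the largest difference in double positive cells, -2.03 (SE 0.53, -2.47 and -1.60 in the 2 sows, limma adjusted p = 0.368). As both colostrum values were below background, it is stated as at least 2.67-fold lower in colostrum, and its second probe, above background in 2 samples, gave 0.62. SLC25A6 differed by -1.22 (SE 0.45, -1.32 and -1.11 in the sows, limma adjusted p = 0.497). Its other 5 probes, all above background in all samples, gave -1.18, -1.17, -0.66, -0.58 and 0.06. The difference of SLC39A7 was 1.30 (SE 0.55, 1.06 and 1.54 in the sows, limma adjusted p = 0.564), with 0.46 by its second bright probe, and it turned to -0.48 under 75th percentile scaling. SLC9A2 was above background in 1 of the 4 samples compared. Without either blood double positive sample, 1 solute carrier had an unadjusted p under 0.05.

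**Figure D3:**
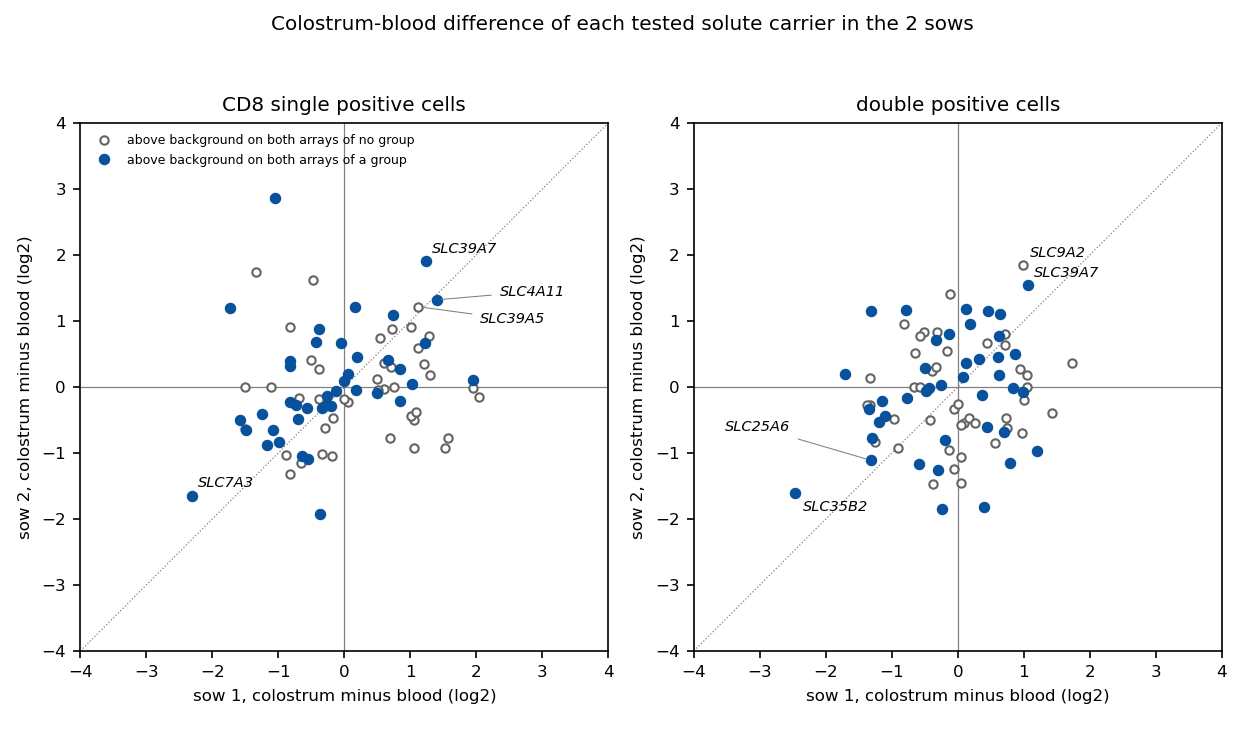
Colostrum minus blood difference (log2) of each of the 84 tested solute carriers in sow 1 (horizontal) and sow 2 (vertical), for CD8 single positive and double positive cells, with filled points for genes seen on both arrays of at least 1 group. Genes at an unadjusted p under 0.05 are named. The cloud surrounds the origin in both panels, and 52 and 43 of 84 genes had the same sign in both sows.

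The median absolute gap between the 2 sows within a group was 0.59 over the 84 tested genes, against median absolute colostrum-blood differences of 0.50 and 0.49. Over all 3706 genes tested these medians were 0.61, 0.47 and 0.49. A gap is taken between single samples and a difference between means of 2, so a gap would tend to be larger even where nothing changes, and these values do not test the differences. Over the 21 genes above background in all samples the gap was 0.35, against 0.33 and 0.42, and over the 1074 genes of any kind with that property 0.42, against 0.44 and 0.49. Both sows gave the same sign for 52 genes (61.9%, background 55.5%) in CD8 single positive cells and for 43 (51.2%, background 54.4%) in double positive cells.

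For the glucose carriers SLC2A1 and SLC2A3 and the lactate carrier SLC16A1 the 95% intervals of the colostrum-blood difference included 0 in both populations. In CD8 single positive cells SLC2A1 differed by 0.31 and SLC2A3 by 0.25, and in double positive cells by -0.50 and 0.33, with signs that turned under some settings in both populations. SLC16A1 differed by 0.53 and 0.80, but -0.57 and -0.67 under 75th percentile scaling, and its 6 other probes ranged from -0.49 to 1.39 and from -1.07 to 1.01. SLC9A3R1 differed by 0.94 (95% interval -0.12 to 2.01) and 0.87 (-0.19 to 1.93), and by -0.69 and -1.13 under 75th percentile scaling.

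**Figure D4:**
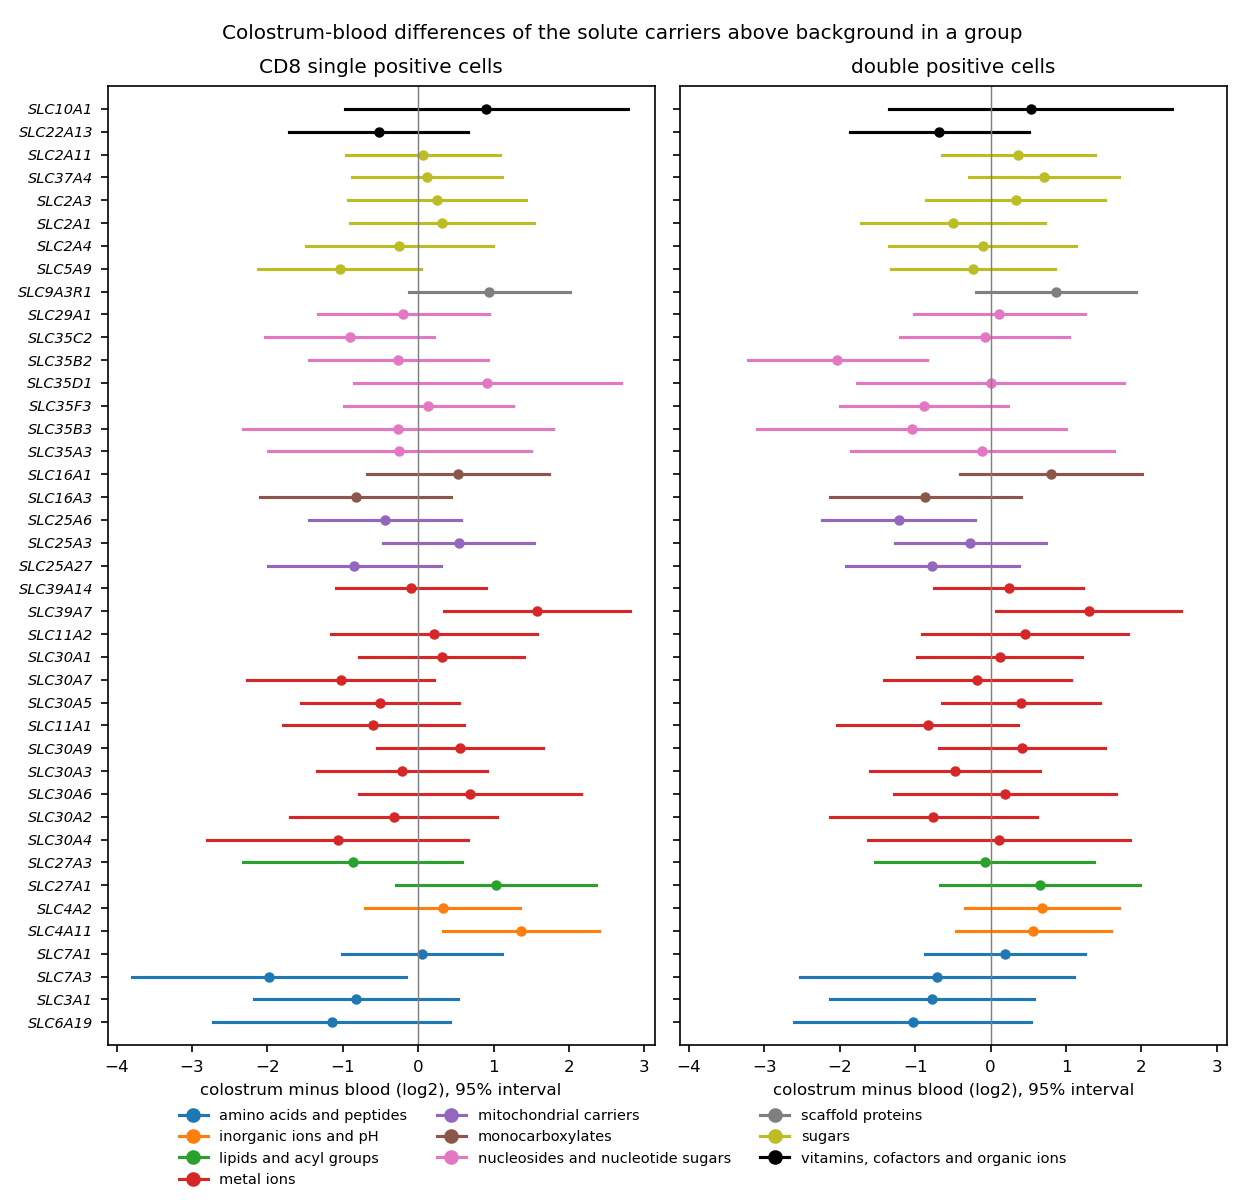
Colostrum minus blood difference (log2, point) with its 95% interval from the limma fit (line) for the 41 solute carriers seen on both arrays of at least 1 group, coloured by class. Intervals are not adjusted for the number of genes. Those of SLC4A11, SLC39A7 and SLC7A3 in CD8 single positive cells and of SLC35B2, SLC25A6 and SLC39A7 in double positive cells exclude 0.

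Scaling mattered most for the genes above background in all samples. When each channel was scaled to its 75th percentile instead of quantile normalization, 19 of these 21 solute carriers in CD8 single positive and 20 in double positive cells had lower values in colostrum, with medians of -1.14 and -1.23. The 1074 genes of any kind above background in all samples behaved alike, with medians of -1.16 and -1.44, while the other 61 solute carriers had medians of 0.57 and 0.38. The median of all genes stayed near 0, at -0.03 and -0.07. On that scaling limma called SLC25A6 (-3.27, adjusted p = 0.0257), SLC25A3 (-2.27, adjusted p = 0.0337) and SLC35B2 (-2.49, adjusted p = 0.0402) lower in colostrum double positive cells, among 287 lower and 10 higher genes.

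Whether the colostrum-blood difference itself differed between the populations was tested as the double positive minus the CD8 single positive difference. limma called 0 of 84 solute carriers, against 0% of all genes, with a smallest adjusted p of 0.997. SLC35B2 alone had an unadjusted p under 0.05 (1.19%, background 2.43%), with -1.77 (SE 0.75, -2.21 and -1.32 in the sows). Its second probe, above background in 2 samples, gave 0.47. The next values by the rule were SLC35F3 at -1.01, SLC35D1 at -0.92 and SLC30A5 at 0.90, and all 3 rested on 1 sow more than on the other. The sows gave -0.17 and -1.86 for SLC35F3, -0.0472 and -1.78 for SLC35D1 and 1.36 and 0.45 for SLC30A5. Leaving out 1 sample gave -1.48 to -0.55, -1.83 to 0.0038 and 0.60 to 1.21, so that SLC35D1 lost its direction. Second probes, each above background in some samples only, gave 0.02 for SLC35F3, -0.84 for SLC35D1 and -0.17 for SLC30A5. With the sow as a block 2 solute carriers had an unadjusted p under 0.05. Without colostrum double positive cells of sow 2 there were 3, and 0 without colostrum CD8 single positive cells of sow 1, colostrum double positive cells of sow 1, blood CD8 single positive cells of sow 2 or either blood double positive sample.

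Within colostrum, double positive cells were compared with CD8 single positive cells, both under the same dye. Each group enters several of the 5 comparisons, so a gene such as SLC35B2 or SLC4A11 that stands out in more than 1 of them does so partly through the same samples. limma called 0 of 84 solute carriers, against 0% higher and 0.027% lower among all genes, with 0.534 as the smallest adjusted p. At an unadjusted p under 0.05 there were 5 (5.95%, background 7.26%), SLC5A9 with higher and SLC4A11, SLC34A2, SLC35B2 and SLC22A7 with lower values in double positive cells. SLC4A11 differed by -1.58 (SE 0.46, -1.86 and -1.29 in the sows, limma adjusted p = 0.534), and its second probe gave -2.01. SLC35B2 was at least 1.78-fold lower by the chosen probe, while its second probe, above background in 2 samples, gave 0.31. SLC34A2, a phosphate carrier of lung and mammary epithelium, was at 7.46 and 6.72 in CD8 single positive and at the floor in both double positive samples, which gives at least 1.12-fold lower. SLC22A7, an organic anion carrier of the liver, was at 7.55 and 6.42 against 5.69 and 5.34, at least 1.04-fold lower, and SLC5A9 at least 1.03-fold higher. Leaving out 1 sample moved the difference of SLC22A7 to between -2.03 and -0.91. With the sow as a block 7 solute carriers had an unadjusted p under 0.05, against 8.85% of all genes, SLC25A27 and SLC3A1 being added.

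The 8 mammary and milk genes on the array had a summed level of 9.75 to 11.71 in colostrum CD8 single positive and 9.26 to 9.66 in colostrum double positive samples, and 1 and 0 of them were above background on both arrays. In blood double positive cells 1 was. Of the 7 tested, 1 had higher and 1 lower values in colostrum double positive cells at an unadjusted p under 0.05, and limma called 0. The higher of the colostrum CD8 single positive sums was that of sow 2, where CSN1S1 was brightest, while SLC34A2 was higher in sow 1. Summed levels of FCER1G, KLRK1 and NCR1, listed here for NK and gamma delta T cells, were 10.85 to 11.39 against 8.62 to 9.65. NCR1 was above background in 0 of 8 samples, so these sums came mainly from FCER1G and KLRK1. They do not show that NK or gamma delta T cells were present. The part of other cells in the values of SLC34A2 and SLC4A11 was not tested. Without colostrum CD8 single positive cells of sow 1 there were 2 solute carriers at an unadjusted p under 0.05, and 3 without colostrum double positive cells of sow 1. The median difference was -0.03, the same to 2 decimals as over all genes.

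Within blood, limma called 0 of 84 solute carriers in double positive against CD8 single positive cells, against 0% of all genes, with a smallest adjusted p of 0.856. SLC39A5 alone had an unadjusted p under 0.05 (1.19%, background 5.42%), at 6.58 and 7.04 against 5.34 and 5.72, with 1 of the 4 values above background. With the sow as a block, 5 solute carriers had an unadjusted p under 0.05 (5.95%, against 6.53% of all genes). The median difference was 0.06, against 0.03 over all genes. SLC35D1 differed by 1.47 and was at least 1.54-fold higher in double positive cells, SLC25A27, a mitochondrial uncoupling protein, by 1.04 and at least 1.53-fold higher, and SLC3A1 by -1.24 and at least 1.87-fold lower. For SLC3A1 the bound holds for the chosen probe only. Another of its probes was above background on both arrays of blood double positive cells, at 7.23 and 7.23, and gave 0.25. Its remaining probes gave -0.27 and -0.54. The sows gave 2.30 and 0.64 for SLC35D1, 1.39 and 0.70 for SLC25A27 and -1.70 and -0.79 for SLC3A1. Leaving out 1 sample moved SLC35D1 to between 0.73 and 2.21 and SLC25A27 to between 0.60 and 1.49. Leaving out 1 sample gave 2 to 4 solute carriers at an unadjusted p under 0.05 for blood CD8 single positive cells of sow 2 (4), either colostrum CD8 single positive sample (3) and either blood double positive sample (2).

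**Figure D5:**
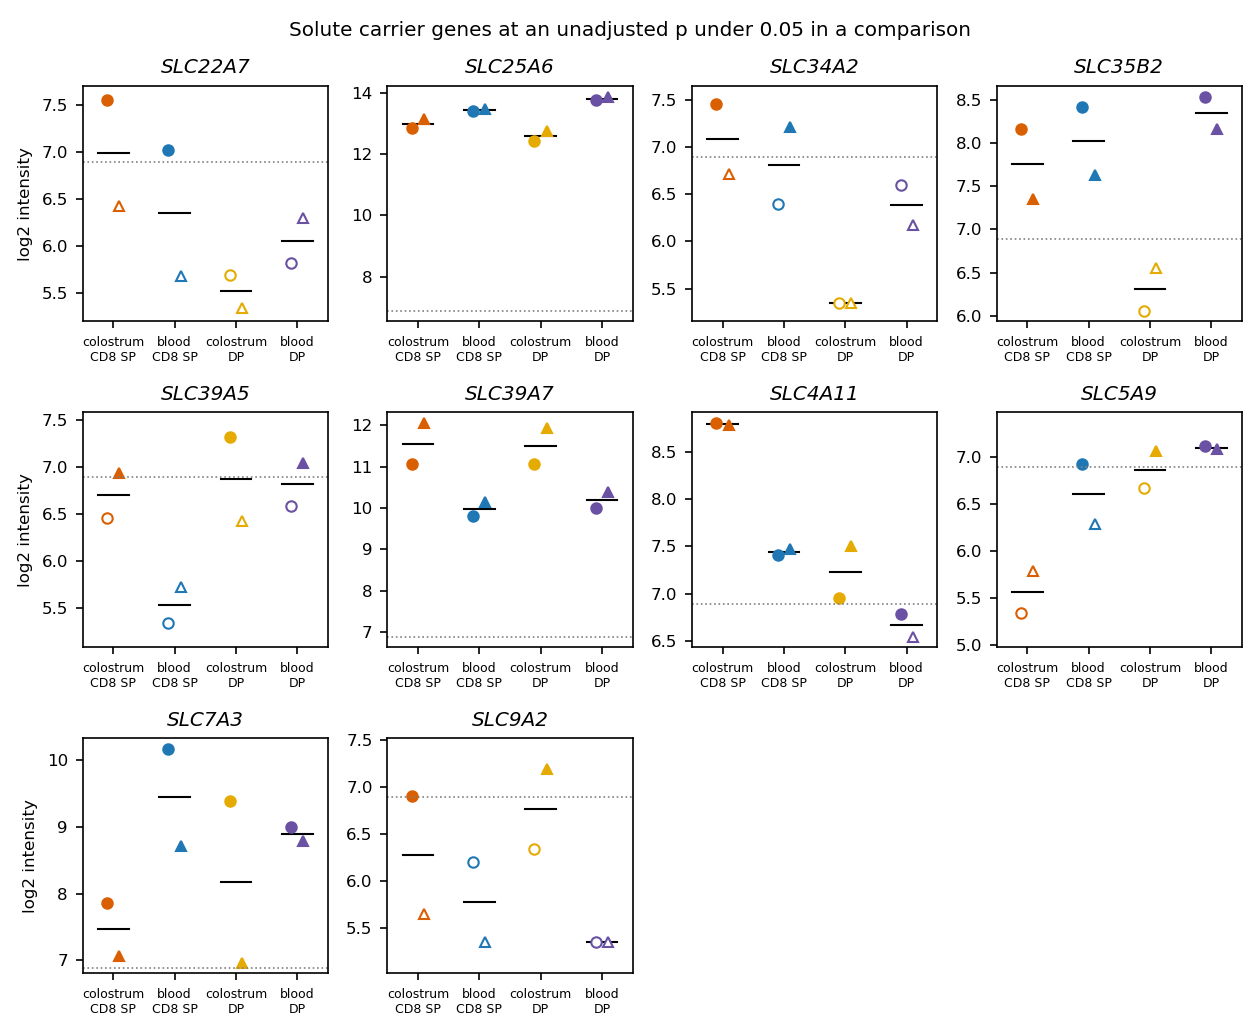
Normalized log2 intensity of the 10 solute carriers with an unadjusted p under 0.05 in any of the 5 comparisons, with a circle for sow 1, a triangle for sow 2, open symbols for values not above the background of their own channel, a black bar for the mean and a dotted line at the mean detection threshold. Vertical scales differ between panels. Only SLC25A6, SLC39A7 and SLC7A3 have filled symbols in all 8 samples.

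Where a gene had several probes they did not always go the same way. Counting probes that were above background on both arrays of 1 of the compared groups, the other probes had the sign of the chosen probe in 21 of 25 cases for colostrum against blood in CD8 single positive cells, and in 15 of 26 in double positive cells. Between populations they did so in 16 of 26 cases in colostrum and in 15 of 29 in blood. SLC25A3, the gene with most probes, had 10, all above background in all samples.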

How the data were processed

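The authors' deposited file of each sample holds 1 whole-number intensity per spot for 45220 spots without a header, and some values lie below 0, as after subtraction of a background. For scanner and software, no name is given in the sources used here. A series matrix deposited by the authors gives 43603 probes on the log2 scale with 1 distribution in all 8 columns (median 6.32) and 1245 empty cells in each. It served to choose each gene's brightest probe, with empty cells set to the lowest value, and as an alternative.

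Repeated spots (50 probes) were averaged, and the 8 channels were quantile normalized. A floor was set at 40.6 intensity units, the mean of the normalized medians of 153 negative-control spots, and log2 was taken. Values at the floor have no order; they were 11.8% of the tested solute carrier values. Genes whose mean exceeded the 30th percentile of probes were tested. limma 3.58.1 (R 4.3.3) was fitted to 8 samples with 4 group means (residual df 4, prior df 5.42), and p-values were adjusted over 3706 genes by Benjamini-Hochberg. The script was tested on simulated data. Where a probe was below background on both arrays of a group, the fold is a bound, "at least", against the mean of the higher of the threshold and the probe's value. The number of arrays limits the precision.

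The platform annotation names 10278 probes and leaves 33325 unnamed here, and 201 probes carry the 105 symbols, of which 142 matched a RefSeq accession of the same gene. Same-numbered samples come from the same sow, per the source names in the labels. The correlation over genes of their deviations from the group means was 0.30 and 0.22 between colostrum and blood of 1 population and -0.02 to 0.08 in the other 4 pairs of groups. The titles of the double positive samples also carry the words of the other population, and their group follows the sort and the design text. The genes, classes and lists were chosen with earlier results of these data known. The rule for named genes took those with a p under 0.05, the 4 largest differences of a comparison that were above background and of 1 sign in both sows, the 8 with the highest mean, and those of a list of 36 with known roles, of which 17 have a symbol here. Other solute carriers are named to describe their class and were chosen after their values were seen. Alternatives were 75th percentile scaling, cyclic loess, normexp, no floor, the deposited matrix, other filters and probe rules, blocks, fewer groups and leaving out each sample.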

Additional observations from a re-analysis of the deposited data

How the results depend on the processing

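With each sample left out and under the 13 other alternatives, 0 solute carriers were called, except under 75th percentile scaling in double positive cells, where 3 were. Below, S and D are colostrum against blood in CD8 single positive and double positive cells, X is their difference, and C and B are double against single positive cells in colostrum and in blood. Counts at an unadjusted p under 0.05 were 4 (S), 4 (D), 1 (X), 5 (C) and 1 (B). 75th percentile scaling gave 15 (S), 16 (D), 0 (X), 2 (C) and 8 (B), or 18.3% (S), 19.5% (D) and 9.76% (B) of the solute carriers tested, below the 22.5%, 26.9% and 10.3% of all genes. Cyclic loess gave 4 (X), 2 (C) and 14 (B), or 4.88%, 2.44% and 17.1% against 4.97%, 2.02% and 13.9% of all genes, normexp and no floor each 0 (X) and 3 (C), and no filter or only the groups compared each 3 (B). The mean of the probes gave 2 (D), 8 (C) and 4 (B). The sow as a replicate block gave 3 (S), 4 (D), 2 (X), 7 (C) and 5 (B), against 8.63%, 9.42%, 2.75%, 8.85% and 6.53% of all genes; a random block for each sow and population gave 7 (S), 2 (X) and 2 (B). Chosen after seeing the data, another probe rule gave 0 (B), and only genes above background in all samples gave 2 (S), 2 (D), 0 (X), 0 (C) and 0 (B). Leaving out 1 sample gave 2 to 5 (S), 1 to 5 (D), 0 to 3 (X), 2 to 6 (C) and 1 to 4 (B). The cause was not tested.

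Signs turned under 75th percentile scaling for SLC9A3R1 (-0.69 in CD8 single positive, -1.13 in double positive cells), SLC2A3 (-0.93, -1.23), SLC16A1 (-0.57, -0.67), SLC2A1 (-0.34 in CD8 single positive cells) and SLC39A7 (-0.48 in double positive cells), and with the mean of probes for SLC16A1 (-0.0126 in double positive cells). Leaving out 1 sample gave -0.0311 to 0.66 and -1.03 to 0.0313 for SLC2A1, -0.11 to 0.60 and -0.12 to 0.78 for SLC2A3, and -1.83 to 0.0038 for SLC35D1 in the difference of the comparisons. Dim probes limit most of the rest: 64 of 105 genes were above background on both arrays of no group.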

Other observations

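Transport genes outside the solute carriers were also read, from a list of 58 symbols of which 30 are on the array and 25 were tested. limma called 0 of these in each of the 5 comparisons. At an unadjusted p under 0.05 there were 3 (12%, against 7.85% of all genes) and 3 (12%, against 8.58%) for colostrum against blood in CD8 single positive and double positive cells, and 2 (8%, against 2.43%) for the difference between these comparisons. Between the populations there were 3 (12%, against 7.26%) in colostrum and 4 (16%, against 5.42%) in blood. The list's shares were not tested. BSG, the chaperone that takes SLC16A1 and SLC16A3 to the cell surface, was at 6.64 and 6.08 in colostrum CD8 single positive cells, where the higher of the blood values was 8.64, and at 6.98 and 8.05 in colostrum against 8.07 and 9.07 in blood double positive cells. Its difference was -1.96 in CD8 single positive cells (SE 0.59, limma adjusted p = 0.53). TXNIP, which lowers glucose uptake by removing SLC2A1 from the cell surface, was at 10.86 and 11.42 in colostrum and 9.72 and 9.25 in blood double positive cells, a difference of 1.65 (SE 0.53, limma adjusted p = 0.44).

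ATP7A, a copper pump, was at the floor in both colostrum double positive samples and reached 8.75 in blood double positive cells of sow 1. ABCB1, a drug efflux pump, was at the floor in both CD8 single positive samples of blood and at 7.28 and 7.15 in colostrum CD8 single positive cells. KCNA3, the main voltage-gated potassium channel of T cells, was at 9.98 and 9.70 in colostrum and 10.29 and 9.90 in blood double positive cells, while CD8 single positive cells reached at most 9.17 in colostrum and 8.78 in blood, so that the populations did not overlap in either source.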
